A study of Mus musculus with 64 samples.

Results

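The insulin and glucose uptake signaling genes described here are 10 genes chosen by symbol, the insulin receptor gene Insr, the receptor substrate genes Irs1, Irs2 and Irs3, the signaling genes Pik3r1, Akt2 and Foxo1, the glucose transporter genes Slc2a4 and Slc2a1, and Pdk4, which links fuel choice to feeding. All 10 were found among the 52636 genes of the count table, and all 10 were among the 20249 genes with enough reads to be tested. They were picked by symbol and not by a cut on measured values. Earlier results of these data were known when they were chosen.

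RNA was sequenced from 2 whole fat depots, brown fat (brown adipose tissue, BAT) and the white fat of the epididymis (eWAT), of male mice of the NamptTM1Jtree line crossed with Adiponectin-Cre mice. In FANKO mice, Cre driven by the adipocyte gene for adiponectin removes a floxed exon of Nampt, the gene for the rate-limiting enzyme of NAD+ salvage, and the wild-type (WT) group came from littermates without Cre. Tissue was taken at zeitgeber time (ZT, hours after lights on) 6, 10, 18 and 22 from mice with free access to chow and water. The labels give every sample the same cross as its strain. Each of the 16 combinations of depot, genotype and time point had 4 samples, 64 in all. Cre is made in adipocytes, so vessel, immune and other cells of the depots keep Nampt, and in whole tissue fewer cells of a type and less RNA per cell cannot be told apart. The labels number the replicates without naming an animal, so the p-values measure the spread between these samples. They do not say whether the 2 depots came from the same mice. The main tests between depots treat the samples as independent.

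Insulin binds a receptor kinase that phosphorylates insulin receptor substrate (IRS) proteins. These recruit phosphoinositide 3-kinase, whose lipid product activates the kinase AKT. In adipocytes and muscle, AKT2 sends vesicles carrying the glucose transporter GLUT4 to the cell surface and keeps the transcription factor FOXO1 out of the nucleus, and in fasting the return of FOXO1 to the nucleus raises genes such as Irs2 and Pdk4.

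Total counts per library ranged from 6117343 to 30544847 with a median of 15826651, and the 10 genes together held at least 8462 counts in every library. Levels are given in CPM, the usual count scaled to library size, here with TMM-scaled library sizes. Nampt itself was 4.97-fold lower in FANKO BAT, where WT libraries ranged from 479 to 1454 CPM and FANKO libraries from 109 to 186 CPM. In FANKO eWAT it was 1.41-fold lower, and FANKO libraries (101 to 131 CPM) overlapped those of WT (112 to 309.7 CPM). These counts cover the whole gene and not the floxed exon alone. The depots were told apart by Ucp1, the uncoupling protein of brown fat, with medians of 4305 CPM in WT BAT and 0.213 CPM in WT eWAT.

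Other cell types moved with genotype in BAT. The summed level of 6 macrophage markers ranged from 86.6 to 163 CPM in WT BAT and from 484 to 1185 CPM in FANKO BAT, and all 6 markers rose. The 3 T cell markers summed to between 0.317 and 1.48 CPM in WT BAT and between 17.9 and 59.5 CPM in FANKO BAT, and the 3 B cell markers to between 0.612 and 4.03 and between 5.55 and 46.9 CPM. The 5 adipocyte markers summed to between 8815 and 12064 CPM in WT BAT and between 4009 and 7168 CPM in FANKO BAT, and 4 of 5 fell. The 5 brown adipocyte markers summed to 4227 to 9889 CPM in WT BAT and 1253 to 3400 CPM in FANKO BAT. Of these, 2 fell. The 5 progenitor and fibroblast markers summed to 256 to 425 CPM in WT BAT and 391 to 828 CPM in FANKO BAT. All 5 rose, while 3 of 5 endothelial markers fell. In eWAT, macrophage markers overlapped between genotypes, at 535 to 829.7 CPM in WT and 517 to 894 CPM in FANKO, with 3 of 6 higher, and the adipocyte markers overlapped too, with 1 of 5 higher and 3 lower. The 5 progenitor and fibroblast markers summed to between 1238 and 1691 CPM in WT eWAT and between 716 and 968 CPM in FANKO eWAT, and all 5 fell. The 4 mesothelial and 3 B cell markers all fell in eWAT as well, with median log2 changes of -0.90 and -1.11, and their summed levels overlapped between genotypes. The 5 brown adipocyte markers summed to between 9.15 and 27.8 CPM in WT eWAT and between 37.1 and 79.9 CPM in FANKO eWAT, with 1 higher and 1 lower. The part of these differences in the changes of the insulin genes was not tested.

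Some libraries stood apart. Summed skeletal muscle markers (8 genes) exceeded 64 CPM in 9 BAT libraries, 5 of WT and 4 of FANKO, among them 3 of the 4 WT libraries at ZT18. The libraries numbered replicate 4 of WT at ZT18 differed from the other 3 replicates of their group in both depots. The BAT library held 40.5 CPM of Irs2 where the other 3 held 5.31 to 8.75 CPM, 100.2 CPM of Foxo1 against 31.3 to 41.9 CPM, and 1473 CPM of Pdk4 against 384 to 618 CPM. The eWAT library held 88.5 CPM of Irs2 against 18.6 to 20.3 CPM, 308 CPM of Insr against 174 to 183 CPM, and 60.2 CPM of Pdk4 against 21.7 to 24.6 CPM. Over all 20249 tested genes, the deviations of the BAT and eWAT libraries from their group means had a correlation of 0.306. The other 3 replicate numbers of WT at ZT18 gave 0.0555 to 0.170. Calls of the 10 genes in mean level, between depots and in rhythm that changed without these libraries are given beside the results. For single time points only changed counts are given.

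**Figure D1:**
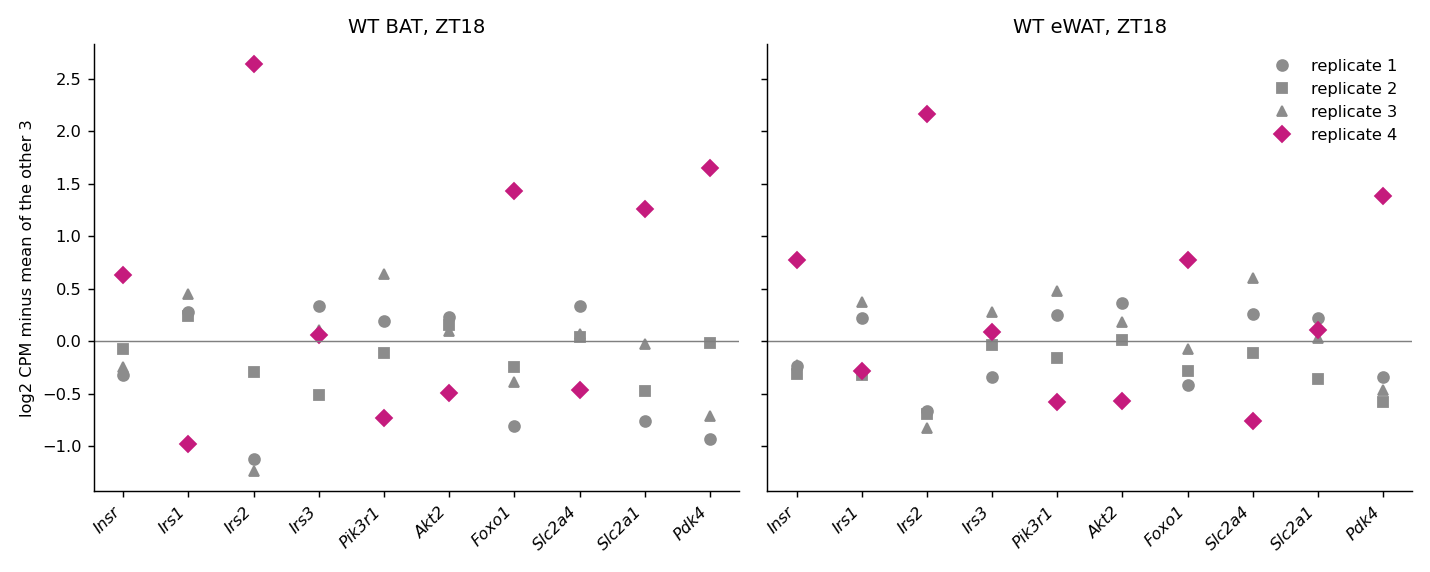
Each point is the log2 CPM of a WT sample at ZT18 minus the mean of the other 3 samples of its group, for the 10 genes (x axis) in BAT (left) and eWAT (right). Replicate 4 (pink diamonds) lay above the other 3 for Irs2, Insr, Foxo1 and Pdk4 in both depots, by as much as 2.64 for Irs2 in BAT and 2.17 for Irs2 in eWAT.

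In WT mice Pdk4 differed more between the depots than any other of the 10 genes. Per kilobase of exon, median levels in WT BAT ran from Pdk4 at 371 CPM and Slc2a4 at 182 CPM, through Akt2 at 54.3, Pik3r1 at 41.2, Insr at 17.3, Irs3 at 12.7, Irs1 at 9.14, Foxo1 at 5.06 and Irs2 at 3.55, down to Slc2a1 at 1.56 CPM. Each neighbouring pair in that order overlapped in range over the 16 libraries except Slc2a4 and Akt2. In WT eWAT the order opened with Pik3r1 at 53.3 CPM per kilobase and Slc2a4 at 50.01, whose ranges overlapped, and Pdk4 stood at 6.05, with a range that overlapped that of Foxo1. In both depots Slc2a1 was lowest. Between WT depots, 8 of 10 genes differed in level at a Benjamini-Hochberg adjusted p below 0.01 in the quasi-likelihood test of edgeR, beside 73.7% of all genes tested. Pdk4 was 46.7-fold higher in BAT than in eWAT (log2 difference 5.55 ± 0.22 SE), Slc2a4 3.69-fold and Akt2 1.92-fold higher, while Irs2 was 2.42-fold lower in BAT. Irs1 and Foxo1 did not pass, with log2 differences of -0.17 ± 0.08 and -0.10 ± 0.10. Pik3r1 had a log2 difference of -0.34, and without the 9 BAT libraries high in muscle markers this was -0.25 and did not pass (adjusted p = 0.0382 in edgeR's test).

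In FANKO mice Akt2 was lower in BAT than in eWAT, the opposite of WT. There, 5 of 10 genes differed between depots, beside 59.7% of all genes. Pdk4 was higher in BAT (6.003-fold), whereas Akt2 was 1.33-fold and Irs3 4.32-fold lower in BAT than in eWAT. Insr had a log2 difference of -0.24 ± 0.06 between FANKO depots and of 0.28 ± 0.06 between WT depots. The FANKO value did not pass with RLE factors (-0.17), with library size scaling alone (-0.16) or without replicate 1 of every group (-0.20). For Slc2a4 the log2 difference between FANKO depots was -0.15 ± 0.07, which did not pass (adjusted p = 0.063).

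In FANKO BAT most of the 10 genes were lower than in WT. Of the 10 genes, 8 fell and 1, Slc2a1, rose in mean level over the 4 time points, beside 67.0% of all tested genes that changed (33.1% higher and 33.9% lower). The median log2 change of the 10 genes was -0.89 and that of all tested genes was 0.00. Irs3, Akt2 and Insr did not overlap between the 16 FANKO and 16 WT libraries, which holds for 22.6% of all tested genes. In eWAT the picture was mixed. Here 6 of the 10 genes fell, 3 rose and Akt2 did not pass, beside 50.3% of all tested genes (27.6% higher and 22.8% lower), and the median log2 change was -0.27, against -0.02 for all genes. Foxo1 and Slc2a4 did not overlap between genotypes in eWAT, which holds for 5.90% of all tested genes. The genotype effect itself differed between depots for 7 of 10 genes, beside 64.3% of all genes. Without replicate 4 of WT at ZT18 it also differed for Slc2a1 (adjusted p = 0.00404 in edgeR's test, 0.0408 with all libraries). With all libraries the Slc2a1 difference passed in DESeq2 (0.00479). It also passed in edgeR's test with RLE factors (0.00756) and with library size scaling alone (9.44e-09).

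**Figure D2:**
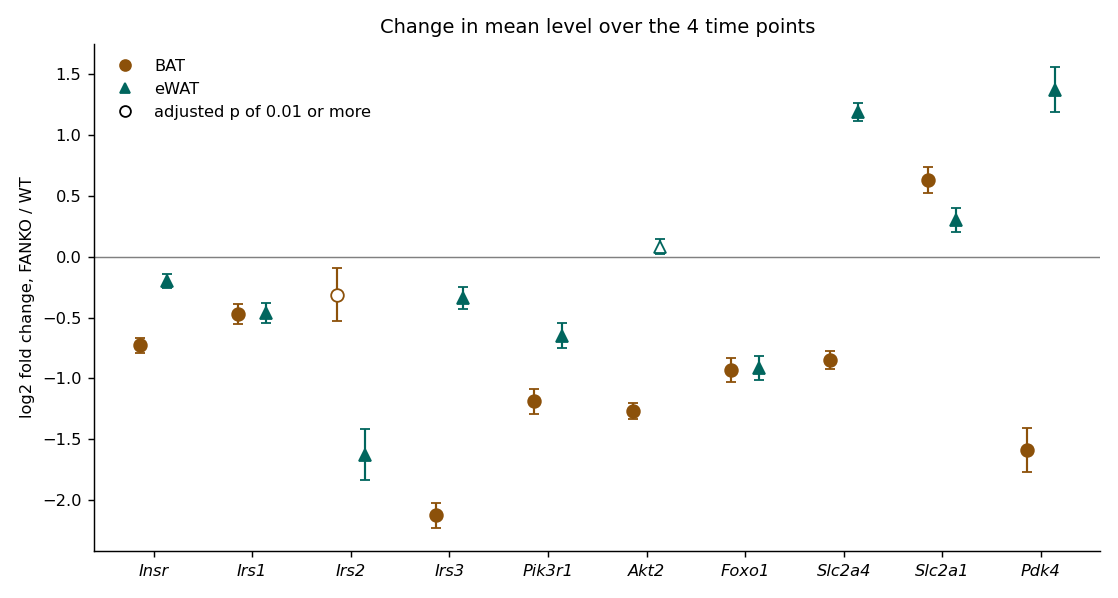
The y axis gives the log2 fold change of FANKO over WT in mean level over the 4 time points, with bars of 1 SE from edgeR's fit, for each gene (x axis) in BAT (circles) and eWAT (triangles). Open symbols did not pass an adjusted p of 0.01; Slc2a4 and Pdk4 lay below 0 in BAT, at -0.85 and -1.59, and above 0 in eWAT, at 1.19 and 1.37.

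The receptor gene Insr (chr8:3122061-3279617, minus strand of GRCm38) fell in both depots and more in BAT. Its level was 206 to 354 CPM (median 237) in WT BAT and 110 to 177 CPM (median 152) in FANKO BAT. It was 153 to 308 CPM (median 193) in WT eWAT and 143 to 219 CPM (median 174) in FANKO eWAT. The BAT ranges did not overlap, and 14 of 16 FANKO eWAT libraries lay inside the WT range. The change was 1.65-fold in BAT (log2 -0.73 ± 0.06) and 1.15-fold in eWAT (log2 -0.20 ± 0.06, adjusted p = 0.00397 in edgeR's test), and the difference between depots, -0.53 ± 0.09, passed. In eWAT the log2 change was -0.14 without replicate 4 of WT at ZT18, with an adjusted p of 0.0058, and it did not pass without replicate 1 (-0.21) or replicate 4 (-0.14) of every group.

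Irs1 (chr1:82233101-82291416, minus strand), the widely expressed substrate, fell in both depots. It went from 52.8 to 111 CPM (median 83.6) in WT BAT to 41.2 to 81.4 CPM (median 60.6) in FANKO BAT, and from 76.8 to 149.8 CPM (median 86.0) in WT eWAT to 57.4 to 85.9 CPM (median 68.2) in FANKO eWAT. The ranges overlapped in both depots. Its log2 changes were -0.47 ± 0.08 and -0.46 ± 0.08, and their difference was -0.01 ± 0.11, which did not pass.

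Irs2 (chr8:10984681-11008458, minus strand), the substrate whose transcription rises in fasting, fell in eWAT. Irs2 levels in eWAT ranged from 18.6 to 103 CPM (median 54.5) in WT and from 5.59 to 34.1 CPM (median 15.9) in FANKO, and 7 of 16 FANKO libraries lay within the WT range. The change in eWAT was 3.09-fold (log2 -1.63 ± 0.21) and passed at each of the 4 time points. In BAT, WT libraries held 5.31 to 60.01 CPM (median 22.4) and FANKO libraries 6.29 to 53.1 CPM (median 12.8), so that every FANKO library lay within the WT range. The log2 change in BAT, -0.31 ± 0.22, did not pass (adjusted p = 0.191 in edgeR's test), and without replicate 4 of WT at ZT18 it was -0.06. The difference between depots, 1.32 ± 0.30, passed.

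Irs3 (chr5:137643031-137645714, minus strand), a substrate found in rodent adipocytes, had the largest fall in BAT among the 10 genes. Irs3 held 20.3 to 46.3 CPM (median 29.7) in WT BAT and 4.57 to 12.95 CPM (median 6.51) in FANKO BAT, with no overlap. In eWAT it held 23.6 to 57.4 CPM (median 37.8) in WT and 22.8 to 49.2 CPM (median 28.1) in FANKO, and 14 of 16 FANKO libraries lay within the WT range. Irs3 was 4.36-fold lower in FANKO BAT (log2 -2.12 ± 0.10) and 1.26-fold lower in FANKO eWAT (log2 -0.34 ± 0.09). The eWAT change did not pass without replicate 3 (-0.29) or replicate 4 (-0.36) of every group.

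RefSeq promoter sequences (GRCm38.p6, 250 bases before to 50 after a gene's start) were found for 8 of the 10 genes and searched on both strands for CACGTG, the E-box bound by CLOCK:BMAL1, for the FOXO element GTAAACA, for the D-box TTANGTAA and for a glucocorticoid response element. The only matches were E-boxes before Irs1 and Irs2, which are shown here because both are substrate genes and because Irs2 was called rhythmic in every combination of depot and genotype. The E-box occurred in 7.15% of all 32851 promoters of the table, GTAAACA in 3.65%, TTANGTAA in 2.32% and the glucocorticoid element in 0.00913%. The E-box began 115 bases before the RefSeq start of Irs1 and 44 bases before that of Irs2, and it is in capitals in the strand of the gene, from chr1:82291489-82291614 and chr8:11008930-11009033, both minus strand. A match describes letters, not binding.
Irs1: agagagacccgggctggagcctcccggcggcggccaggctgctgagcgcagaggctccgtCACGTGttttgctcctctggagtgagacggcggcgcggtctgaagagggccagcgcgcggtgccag
Irs2: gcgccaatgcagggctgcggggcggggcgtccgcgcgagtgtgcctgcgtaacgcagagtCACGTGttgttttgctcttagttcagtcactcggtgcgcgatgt

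Of the signaling genes, Pik3r1 (chr13:101680563-101768217, minus strand) encodes the regulatory subunit p85 of phosphoinositide 3-kinase. Pik3r1 held 187 to 868 CPM (median 415) in WT BAT and 137 to 265 CPM (median 192) in FANKO BAT, a 2.28-fold fall (log2 -1.19 ± 0.10). In eWAT the ranges were 336 to 949 CPM (median 537) and 212 to 518 CPM (median 350.0), a 1.57-fold fall (log2 -0.65 ± 0.10). In each depot 9 of 16 FANKO libraries lay within the WT range, and WT levels differed by time of day as given further on.

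Akt2 (chr7:27591552-27640826, plus strand), the AKT isoform of insulin-stimulated glucose uptake, fell in BAT, and a change in eWAT was not detected. Akt2 held 236 to 435 CPM (median 387) in WT BAT and 120.0 to 196 CPM (median 157) in FANKO BAT, with no overlap and a 2.41-fold fall (log2 -1.27 ± 0.06). In eWAT it held 137 to 242 CPM (median 197) in WT and 160.1 to 284 CPM (median 200.4) in FANKO, with a log2 change of 0.08 ± 0.06 (adjusted p = 0.261 in edgeR's test). The difference between depots was -1.35 ± 0.09 and passed.

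Foxo1 (chr3:52268336-52353221, plus strand) fell in both depots. Foxo1 held 31.3 to 100.2 CPM (median 43.9) in WT BAT and 20.7 to 34.9 CPM (median 27.1) in FANKO BAT, and 43.8 to 84.7 CPM (median 54.6) in WT eWAT and 24.1 to 34.0 CPM (median 29.3) in FANKO eWAT. Only 2 of 16 FANKO BAT libraries lay within the WT range, and none in eWAT. The log2 changes were -0.93 ± 0.10 and -0.92 ± 0.10, with a difference of -0.01 ± 0.14 that did not pass.

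Slc2a4 (chr11:69942539-69948188, minus strand), which encodes GLUT4, moved in opposite directions. Slc2a4 held 427 to 1024 CPM (median 634) in WT BAT and 276 to 469.5 CPM (median 362) in FANKO BAT, where 3 of 16 libraries lay within the WT range. In eWAT it held 111 to 294 CPM (median 174) in WT and 354 to 509 CPM (median 402) in FANKO, and every FANKO library lay above every WT library. The change was 1.80-fold down in BAT (log2 -0.85 ± 0.08) and 2.28-fold up in eWAT (log2 1.19 ± 0.08), a difference of -2.04 ± 0.11 that passed (adjusted p = 5.91e-25 in edgeR's test). Muscle also makes GLUT4. Without the 9 BAT libraries high in muscle markers the BAT change was -0.79. The summed muscle markers were 5.99 to 83.7 CPM in WT eWAT and 25.2 to 115 CPM in FANKO eWAT. Acta1, the skeletal muscle actin gene, made up most of this sum, with medians of 14.7 and 50.8 CPM, and was the only one of the 8 called higher, while the median of each of the other 7 was at most 0.603 CPM. With the muscle markers as a covariate the eWAT change of Slc2a4 was 1.19. Because 7 of the 8 markers were near 0 in eWAT, that fit could adjust little there. The part of muscle in the change was not tested.

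Slc2a1 (chr4:119108711-119137983, plus strand), which encodes the insulin-independent transporter GLUT1, was scarce and rose in BAT. Slc2a1 held 2.67 to 9.70 CPM (median 5.48) in WT BAT, with 18 to 113 counts per library, and 6.60 to 10.6 CPM (median 8.53) in FANKO BAT. In eWAT the ranges were 5.36 to 11.96 CPM (median 7.79) and 8.62 to 11.7 CPM (median 10.3), and all 16 FANKO libraries lay within the WT range. The change was 1.55-fold up in BAT (log2 0.63 ± 0.11) and 1.23-fold up in eWAT (log2 0.30 ± 0.10, adjusted p = 0.0082 in edgeR's test). The eWAT change did not pass in DESeq2 (adjusted p = 0.0268), with RLE factors (0.0340), with library size scaling alone (log2 0.051), with no low count filter or a stricter one, without the mitochondrial genes, with an epididymis covariate, or without replicate 1, 2 or 3 of every group.

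Pdk4 (chr6:5483351-5496309, minus strand) encodes a kinase that switches off pyruvate dehydrogenase when fat is burned. Pdk4 held 311 to 2044 CPM (median 1301) in WT BAT and 81.1 to 1293 CPM (median 234) in FANKO BAT, with 7 of 16 FANKO libraries within the WT range. In eWAT, where it was scarce, it held 13.9 to 60.2 CPM (median 21.2) in WT and 35.8 to 113 CPM (median 55.3) in FANKO. Without the WT library at 60.2 CPM, the highest WT eWAT value was 29.4 CPM, below every FANKO eWAT value. Pdk4 was 3.01-fold lower in FANKO BAT (log2 -1.59 ± 0.18) and 2.59-fold higher in FANKO eWAT (log2 1.37 ± 0.19), and the difference between depots of -2.96 ± 0.26 was the largest of the 10 genes.

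The choice of scaling moved these changes. The median share of counts from mitochondrial DNA genes was 24.6% in WT BAT and 14.7% in FANKO BAT, and 6.55% and 10.7% in the eWAT of WT and FANKO mice. With libraries scaled by their total alone, the median log2 change of all genes was 0.58 in BAT (12785 genes called higher and 2274 lower) and -0.27 in eWAT (2389 higher and 8592 lower). Under that scaling the BAT change of Insr was -0.15 and did not pass (adjusted p = 0.0601 in edgeR's test), Irs1 and Irs2 in BAT turned to 0.12 and 0.24, and Akt2 in eWAT to -0.16. The depot differences of Insr and Pik3r1 turned to 0.30 (adjusted p = 0.00734 in edgeR's test) and 0.31 (0.0340), and Insr between WT depots to -0.46. Those of Irs1 and Foxo1, which did not pass with TMM, became 0.83 and 0.82 and passed (7.50e-10 and 1.01e-06). Between WT depots Irs1 and Foxo1 came to pass too, at -0.92 and -0.85. Taken relative to the median of all genes, the changes of Irs1 and Irs2 in BAT were -0.46 and -0.34. That of Akt2 in eWAT was 0.11. With TMM scaling these were -0.47, -0.31 and 0.08. A change of scaling shifts all genes together, and with TMM their median was 0.00 in BAT and -0.02 in eWAT. This likeness therefore follows from the arithmetic and does not choose between the scalings. Of the 10 genes, 4 share exon bases with a gene on the opposite strand, Irs1 (2822 bases), Foxo1 (674), Irs2 (162) and Slc2a1 (105), and the strand setting of the counting is not given in the sources used here, so reads of those bases cannot be told apart.

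A 24 h cosine was called in 6 of the 10 genes in WT BAT (Irs2, Pik3r1, Akt2, Foxo1, Slc2a4 and Pdk4), beside 13.9% of all tested genes, and in 2 (Irs2 and Pdk4) in FANKO BAT, beside 2.84%. In eWAT it was called in 3 WT genes (Irs2, Irs3 and Pik3r1), beside 9.38%, and in 1 FANKO gene (Irs2), beside 6.77%. Without 1 replicate of every group, calls numbered 2 to 5 in WT BAT and 1 to 2 in FANKO BAT. In eWAT they then numbered 2 to 5 in WT and 0 to 2 in FANKO mice. Without replicate 4 of WT at ZT18, the cosines of Insr, Akt2 and Slc2a4 also passed in WT eWAT, with adjusted p of 0.00277, 0.00353 and 0.000432 in edgeR's test (0.0413, 0.102 and 0.0111 with all libraries), and that of Akt2 in FANKO eWAT (0.00404, against 0.0202). Without the 9 BAT libraries high in muscle markers, that of Irs1 passed in WT eWAT (0.00873, against 0.0215). With all libraries, the Slc2a4 cosine in WT eWAT passed in DESeq2 (0.00422). In edgeR's test it passed with RLE factors (0.0095) and with a replicate block (0.00683). The Irs1 cosine there passed with time as a factor (0.00385) and with each depot fitted alone (0.00987). That of Akt2 in FANKO eWAT passed in DESeq2 (0.00664). With 4 time points, peak hours are rough, and a call in WT and none in FANKO does not show a difference. The direct test of a changed rhythm called none of the 10 genes in BAT by edgeR, where 5 had an unadjusted p below 0.05 and 2.76% of all genes were called, and none by limma-voom but 1, Slc2a4, by DESeq2. In eWAT it called 1, Irs3, by each of the 3 tools, beside 1.15% of all genes.

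**Figure D3:**
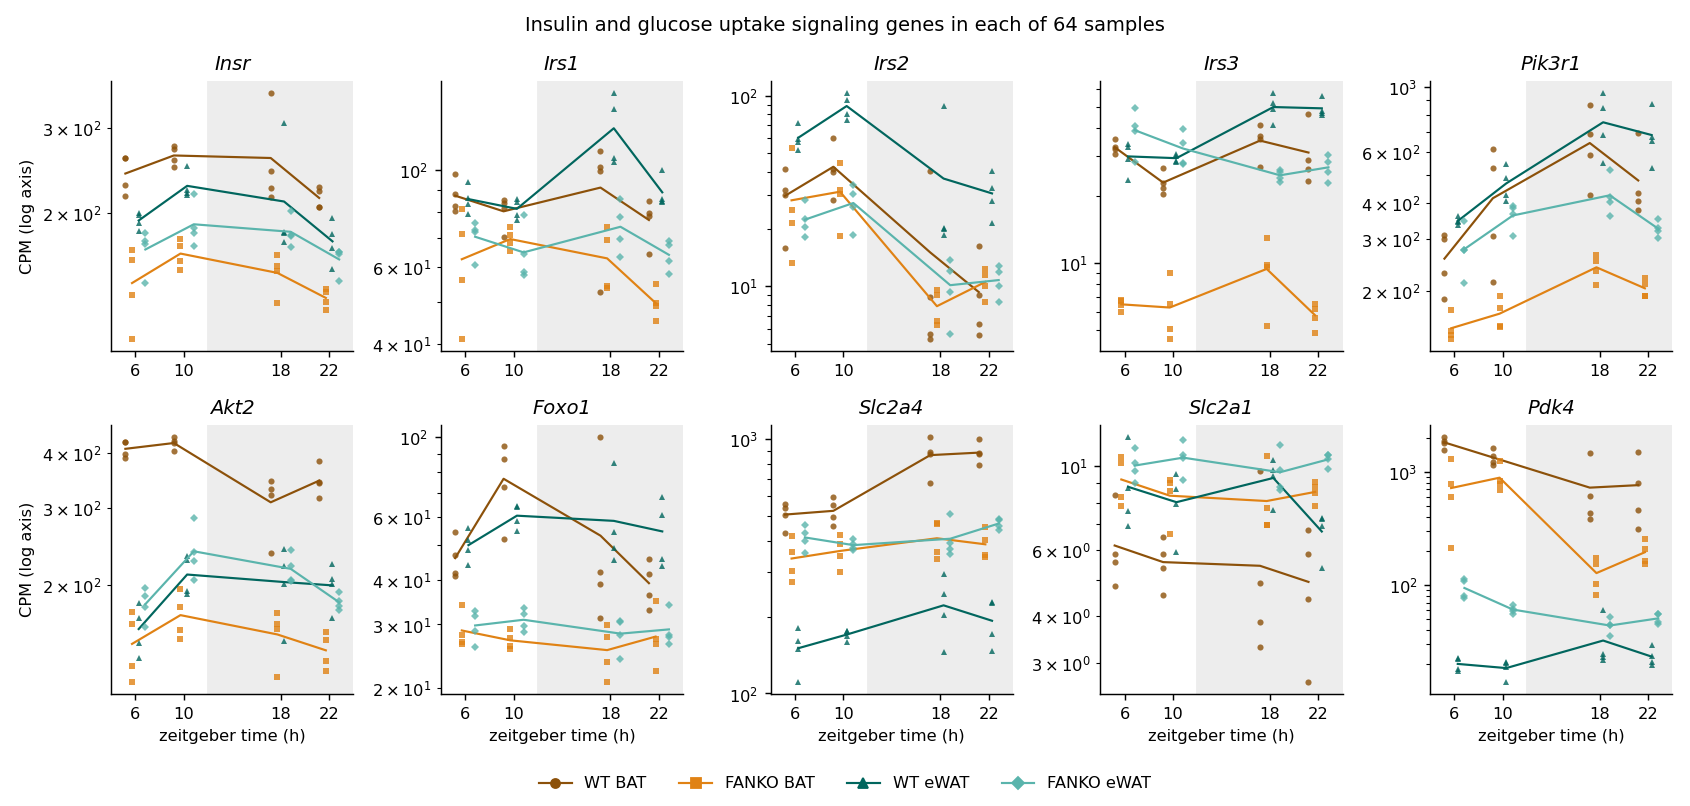
Each panel shows the CPM of a gene on a log axis against zeitgeber time in the 64 samples, with points moved slightly sideways by group, lines through the means of 4 samples and the dark phase in grey. Irs2 was high at ZT6 and ZT10 in all 4 combinations of depot and genotype, and Pdk4 in BAT was 1823 CPM on average in WT and 720 CPM in FANKO at ZT6.

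Irs2 was called rhythmic in all 4 combinations of depot and genotype and was high in the light phase. At ZT10 the WT BAT samples held 41.5, 60.01, 28.5 and 39.8 CPM of Irs2, and at ZT22 9.05, 5.57, 6.36 and 16.4 CPM. The values at ZT10 were above those at ZT22 in every sample. The FANKO BAT samples held 18.5, 30.5, 31.9 and 44.7 CPM at ZT10 and 6.29, 9.60, 6.60 and 8.97 CPM at ZT18. From trough to peak, Irs2 means differed 4.76-fold in BAT of WT and 3.83-fold in BAT of FANKO mice, and in eWAT 3.06-fold in WT and 2.76-fold in FANKO mice. In eWAT the calls did not pass without replicate 1, 2 or 3 of every group, with adjusted p from 0.0600 to 0.0822 in WT and from 0.0331 to 0.122 in FANKO mice, nor with time as a factor (0.0131 and 0.0283). In BAT they did not pass without replicate 2 (0.0371 in WT and 0.0439 in FANKO). A change of its rhythm with genotype was not detected (adjusted p = 0.643 in BAT and 0.926 in eWAT, edgeR's test).

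Pdk4 was called rhythmic in BAT of both genotypes. In WT BAT the adjusted p was 0.00233 in edgeR's test, and it did not pass without replicate 1 (0.0219), 2 (0.0803) or 3 (0.0853) of every group or with each depot fitted alone (0.0222). At ZT6 the WT samples held 1550.5, 2044, 1884 and 1813 CPM of Pdk4, and at ZT18 384, 618, 430 and 1473 CPM. The FANKO samples held 695, 786, 826 and 1251 CPM at ZT10 and 103, 154, 173 and 81.1 CPM at ZT18. The FANKO samples at ZT18 were all below the lowest WT sample of that time point, and so were 3 of 4 at ZT10, where 1154 CPM was lowest in WT. The amplitude between mean levels was 2.91-fold in WT BAT and 7.10-fold in FANKO BAT, and the test of a changed rhythm gave an adjusted p of 0.0517 (0.0444 without replicate 4 of WT at ZT18).

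Slc2a4 rose into the dark phase in WT BAT. At ZT6 the samples held 505, 427, 535 and 556 CPM of Slc2a4, and at ZT22 999.5, 876, 882 and 791 CPM, without overlap. In FANKO BAT they held 304, 362, 417 and 276 CPM at ZT6 and 450.3, 351, 345 and 400.1 CPM at ZT22, which overlap. The fall with genotype was 1.09 ± 0.16 on the log2 scale at ZT18 and 1.198 ± 0.16 at ZT22, and 0.58 ± 0.16 at ZT6. The test of a changed rhythm gave an adjusted p of 0.0216, of 0.0035 without replicate 4 of WT at ZT18 and of 0.130 without the 9 BAT libraries high in muscle markers.

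Foxo1 peaked at ZT10 in WT BAT. It held 72.5, 94.3, 87.1 and 52.1 CPM at ZT10 and 32.9, 36.2, 45.8 and 41.5 CPM at ZT22 in WT BAT. The cosine there did not pass without replicate 2 of every group (adjusted p = 0.0210 in edgeR's test). In FANKO BAT all 16 values of Foxo1 lay between 20.7 and 34.9 CPM, with means of 28.9 ± 3.5 at ZT6, 27.1 ± 1.6 at ZT10, 25.4 ± 4.1 at ZT18 and 27.8 ± 5.3 CPM at ZT22 (SD, n = 4). The fall with genotype was largest at ZT10 (log2 -1.50 ± 0.20) and did not pass at ZT22 (-0.50 ± 0.20). A changed rhythm of Foxo1 had an adjusted p of 0.027 in edgeR's test, of 0.00413 without replicate 4 of WT at ZT18 and of 0.00721 without the 9 BAT libraries high in muscle markers, and both of these pass.

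Pik3r1 was high at ZT18 in every combination of depot and genotype. In WT BAT it rose from 258 ± 59.3 CPM at ZT6 to 641 ± 186 CPM at ZT18 (mean ± SD, n = 4), and in WT eWAT from 347 ± 10.5 to 755 ± 177 CPM. In FANKO BAT the means were 149 ± 15.4 and 241 ± 24.1 CPM, and the cosine had an adjusted p of 0.0339. Akt2 in WT BAT was high by day, with 398, 390, 423 and 424 CPM at ZT6 against 345, 332, 322 and 236 CPM at ZT18. Its adjusted p of 0.00813 in WT BAT became 0.0158 without replicate 4 of WT at ZT18 and 0.125 without the 9 libraries high in muscle markers. Nor did the Akt2 cosine pass in edgeR's test without replicate 2 (0.0438), 3 (0.0914) or 4 (0.0595) of every group. The adjusted p was 0.0264 with no low count filter and 0.0108 with time as a factor.

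Irs3 changed its time-of-day pattern in eWAT with genotype. WT eWAT samples held 33.0, 23.6, 34.1 and 29.0 CPM of Irs3 at ZT6 and 41.4, 48.6, 57.4 and 51.8 CPM at ZT18. FANKO eWAT samples held 49.2, 38.8, 28.1 and 40.8 CPM at ZT6 and 25.5, 23.1, 24.03 and 25.9 CPM at ZT18. The order was opposite in the 2 genotypes, high in the dark phase in WT and high by day in FANKO. The FANKO cosine itself did not pass in edgeR's test (adjusted p = 0.0154). It passed in DESeq2 (0.00909) and limma-voom (0.00925), and in edgeR's test with a replicate block (0.00979) or each depot fitted alone (0.0011). The test of a changed rhythm gave an adjusted p of 8.28e-05 with edgeR (7.99e-05 without replicate 4 of WT at ZT18). No cosine of Irs3 was called in BAT of either genotype.

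At single time points, the 10 genes gave 8 calls at ZT6, 6 at ZT10, 8 at ZT18 and 8 at ZT22 in BAT, beside 48.2%, 45.7%, 44.0% and 45.3% of all genes. In eWAT they gave 4, 4, 6 and 5 calls, beside 27.0%, 24.5%, 13.6% and 20.6% of all genes. At ZT22 in eWAT there were 8 calls without the BAT libraries high in muscle markers. There were also 8 without replicate 4 of WT at ZT18, which gave 9 calls at ZT6 in BAT. Irs3, Akt2, Insr, Pik3r1 and Slc2a4 passed at each time point in BAT, and Irs2, Foxo1 and Slc2a4 at each in eWAT. Pdk4 in eWAT rose by a log2 change of 2.22 ± 0.37 at ZT6 and 1.72 ± 0.37 at ZT10. With all libraries, its changes of 0.44 ± 0.36 at ZT18 and 1.12 ± 0.37 at ZT22 did not pass.

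**Figure D4:**
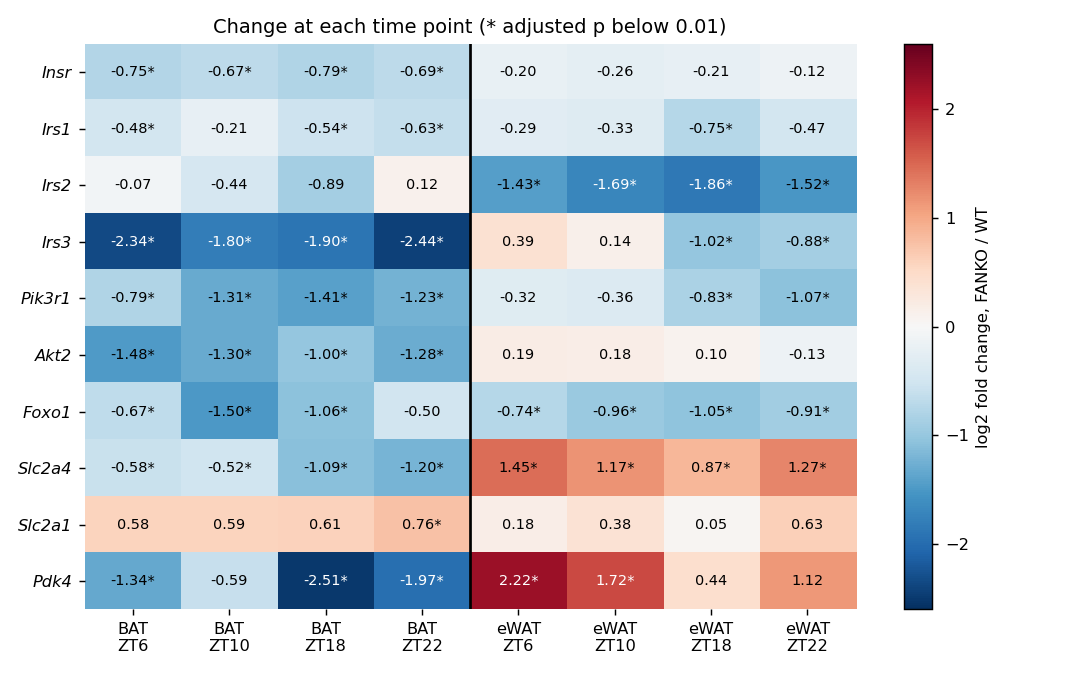
Colours and numbers give the log2 fold change of FANKO over WT for each gene (rows) at each time point in BAT and eWAT (columns), and asterisks mark an adjusted p below 0.01. In BAT, Pdk4 ranged from -0.59 at ZT10 to -2.51 at ZT18, and in eWAT Irs3 ranged from 0.39 at ZT6 to -1.02 at ZT18.

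Around these 10 genes, 98 other genes of the pathway in 9 lists were tested in the same fit. In BAT 80 changed, beside 67.0% of all tested genes, 32 higher and 48 lower, with a median log2 change of -0.15. In eWAT 73 changed, beside 50.3%, 45 higher and 28 lower, with a median of 0.09. These splits depended on scaling. With library size scaling alone, the BAT split was 59 higher and 18 lower and the eWAT split 22 higher and 43 lower. In BAT the medians of 4 lists then turned from below to above 0. In eWAT they turned from above to below 0 for adaptors (-0.18), PI3K and AKT kinases (-0.013) and AKT substrates (-0.20). The eWAT medians of GLUT4 vesicle traffic (-0.15) and glucose transport (-0.052) turned too. Relative to the median of all genes, list medians moved by less than 0.05. A shift of all genes together implies this, so it does not choose between the scalings. For each list, the pair in brackets gives the same counts with library size scaling alone. The list counts stand beside 33.1% of all tested genes higher and 33.9% lower in BAT. In eWAT these shares were 27.6% and 22.8%. With library size scaling alone, 74.4% of all tested genes changed in BAT and 54.2% in eWAT. No list was tested against these shares. Cosines were called for 20 of the 98 in BAT of WT mice (13.9% of all tested genes), and in eWAT for 15 in WT (9.38%) and 14 in FANKO mice (6.77%). In FANKO BAT edgeR called none (2.84%), although 29 had an unadjusted p below 0.05, and DESeq2 called 3 and limma-voom 2. A changed rhythm was called for 3 of the 98 in BAT (2.76% of all tested genes), among them Akt1 and Tbc1d4. In eWAT (1.15%) edgeR, DESeq2 and limma-voom each called 0, with 14 at an unadjusted p below 0.05.

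The pyruvate dehydrogenase list, which holds the complex that PDK4 inhibits, its regulators and the mitochondrial pyruvate carrier, moved in opposite directions in the depots. In BAT 10 of its 12 genes fell and 1 rose (7 and 2), beside 67.0% of all tested genes that changed. The median log2 change was -0.83. In eWAT 10 rose and 2 fell (10 and 2), beside 50.3%, with a median of 1.07. Dld, the E3 subunit, held 861 to 1261 CPM in WT BAT and 288 to 586 CPM in FANKO BAT, without overlap, and changed by -1.37 ± 0.08. Its change in eWAT was 0.64 ± 0.08. Pdhb, an E1 subunit, changed by -0.78 ± 0.11 and 1.55 ± 0.11, and Mpc1, of the mitochondrial pyruvate carrier, by -0.49 ± 0.12 and 2.00 ± 0.12. In eWAT, Mpc1 held 39.3 to 145 CPM in WT and 283 to 429 CPM in FANKO. The exceptions, named after their values were seen, were Pdk3 (1.82 in BAT and -0.27 in eWAT) and Pdp1 (-0.03, which did not pass, and -0.29). The median share of counts from mitochondrial DNA genes moved the same ways as the list. From WT to FANKO it went from 24.6% to 14.7% in BAT and from 6.55% to 10.7% in eWAT. Whether the list differs from other mitochondrial genes was not tested.

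All 12 inhibitors of the pathway changed in BAT, beside 67.0% of all tested genes. Of these inhibitors 7 were higher and 5 lower (7 and 1), with a median of 0.39. In eWAT 3 rose and 6 fell (1 and 8), beside 50.3% of all tested genes, with a median of -0.14. Ptprf, a receptor phosphatase, held 0.424 to 3.33 CPM in WT BAT and 36.2 to 90.1 CPM in FANKO BAT (log2 4.99 ± 0.13), and fell in eWAT (-1.42 ± 0.10). Socs1, a cytokine-induced inhibitor, held at most 0.423 CPM in WT BAT and 1.65 to 5.42 CPM in FANKO BAT. Grb14, an adaptor that blocks the receptor kinase, fell in both depots (-1.57 ± 0.18 and -1.46 ± 0.21), and Trib3, which binds AKT, rose in eWAT (2.46 ± 0.13). The immune cell markers and the progenitor and fibroblast markers given above rose in the same FANKO BAT libraries. The cell source of these changes was not tested.

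Among adaptors, 4 rose and 4 fell of 10 in BAT (7 and 2), and 3 rose and 4 fell in eWAT (1 and 5). The share of all tested genes that changed was 67.0% in BAT and 50.3% in eWAT. Dok1, an adaptor of blood cells and others, rose in BAT (3.35 ± 0.10), and Sh2b2, or APS, rose in eWAT (1.65 ± 0.09). For the IGF receptors, 1 of 3 rose in BAT (3 and 0). This was Insrr, at 0 to 0.317 CPM in WT and 0.375 to 1.25 CPM in FANKO, and in eWAT 1 rose and 1 fell (1 and 1). Of 11 kinases of the PI3K and AKT group, 3 rose and 5 fell in BAT (11 and 0) and 7 rose and 2 fell in eWAT (1 and 3), with medians of -0.08 and 0.23.

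Downstream of AKT, 2 of 12 substrates and mTORC1 genes rose and 7 fell in BAT (7 and 3), and 5 rose and 1 fell in eWAT (1 and 6). Of all tested genes, 67.0% changed in BAT and 50.3% in eWAT. Pde3b, the phosphodiesterase through which insulin restrains lipolysis, held 369 to 873 CPM in WT BAT and 147 to 287 CPM in FANKO BAT, without overlap (log2 -1.38 ± 0.07), while in eWAT its change of -0.16 ± 0.07 did not pass. In the GLUT4 vesicle list of 17 genes, 7 rose and 9 fell in BAT (11 and 2) and 9 rose and 4 fell in eWAT (2 and 8), with medians of -0.24 and 0.09. Tbc1d4, the AKT substrate AS160 that holds GLUT4 vesicles back, fell in BAT (-0.83 ± 0.05). Its rhythm changed in BAT (adjusted p = 3.24e-06 in edgeR's test).

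Of other glucose transporters and hexokinases, 8 of 10 passed in each depot, beside 67.0% of all tested genes in BAT and 50.3% in eWAT. In BAT 4 of 10 were higher and 4 lower (6 and 1), and in eWAT 5 were higher and 3 lower (3 and 3). Slc2a5, the fructose transporter GLUT5, held 0.421 to 12.03 CPM in WT eWAT and 32.8 to 80.2 CPM in FANKO eWAT, without overlap (log2 3.92 ± 0.25), and did not pass in BAT. Slc2a12, or GLUT12, fell in both depots (-1.93 ± 0.13 and -2.57 ± 0.13). Hk3, a hexokinase of white blood cells, held 0.437 to 1.69 CPM in WT BAT and 17.4 to 58.4 CPM in FANKO BAT, beside the macrophage markers that rose there. Among 11 FOXO and fasting linked genes, 3 rose and 4 fell in BAT (5 and 2) and 2 rose and 5 fell in eWAT (2 and 7). Klf15, a fasting-linked transcription factor, held 7.41 to 97.4 CPM in WT BAT and 3.01 to 10.1 CPM in FANKO BAT (log2 -2.74 ± 0.18).

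**Figure D5:**
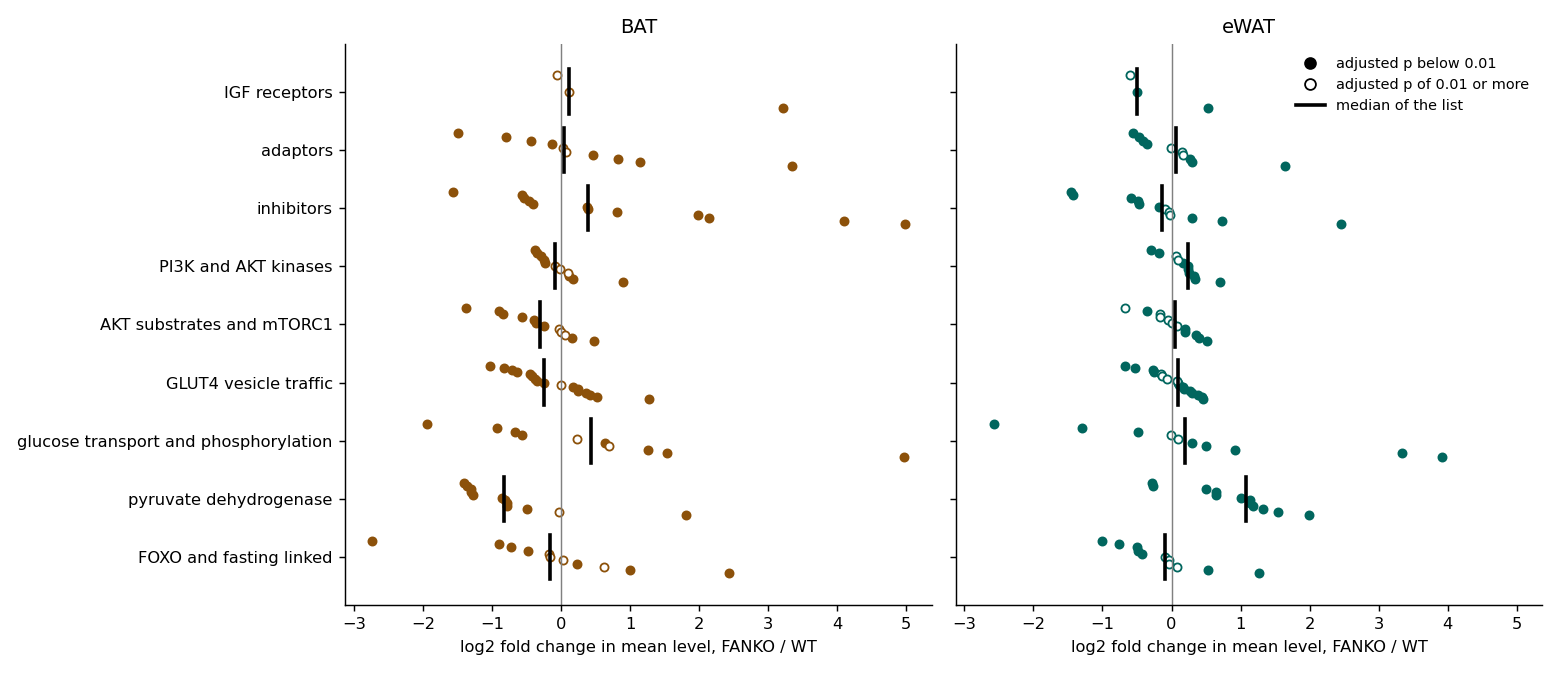
Each point is a gene of the 9 pathway lists (y axis), placed by its log2 fold change of FANKO over WT in mean level in BAT (left) and eWAT (right); open points did not pass an adjusted p of 0.01 and black bars are list medians. The pyruvate dehydrogenase list had its median at -0.83 in BAT and 1.07 in eWAT.

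Over the 16 group means of log2 CPM, the genes most like each of the 10 among 12817 genes were found by Pearson's r as a description, with no test. Pim1 (0.979) and Pde4d (0.967) were most like Pdk4, Cnpy2 (0.974) and Hdhd3 (0.969) most like Akt2, and Ebp (0.970) and Map4k5 (0.964) most like Irs3. Zfp91 (0.969) and Lrrn3 (0.966) were most like Slc2a4, and Rgmb was most like Irs1 at 0.897, the lowest first match of the 10. The 16 points share depot and genotype in sets of 4. Among the 10 genes themselves, the highest r was that of Insr and Akt2 (0.865) and the lowest that of Akt2 and Slc2a1 (-0.725).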

How the data were processed

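Per the labels, total RNA libraries were made with the Illumina TruSeq Stranded Total RNA kit with Ribo-Zero Gold. The submitters' processing notes name STAR 2.5.3a, featureCounts 1.5.3 and the build GRCm38.p5, and the authors deposited a table of raw read counts per Ensembl gene for 64 samples. The strand setting of the counting is not given in the sources used here. Of 52636 identifiers, 52489 were paired with a symbol from GENCODE M21.

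From these counts, genes were kept with edgeR 4.0.16 filterByExpr (minimum count 10), libraries were scaled by TMM, and quasi-likelihood models were fitted over all 20249 genes and 64 samples. A model with a 24 h cosine for each depot and genotype gave mean levels and rhythms, and a model of 16 groups gave single time points. P-values were adjusted by Benjamini-Hochberg over all genes tested and called below 0.01. CPM were computed with TMM-scaled library sizes, and errors of log2 changes are standard errors. The cosine model was first run on simulated counts with known changes in level and rhythm, which does not test the changes reported here. Totals per library set the precision, and scarce genes such as Slc2a1 carry more counting error.

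Alternatives included DESeq2 1.42.0, limma-voom (limma 3.58.1), other scaling and filters, marker covariates, a replicate block and leaving out each replicate. Others, without the BAT libraries high in muscle markers and without replicate 4 of WT at ZT18, were chosen after seeing the data. The 10 genes, the pathway lists and the marker lists were chosen with earlier results of these data known. Pathway genes were named by a rule, in each depot the 6 largest rises and 6 largest falls in mean level among called genes of all lists, and up to 4 called genes with the smallest p for each test of a difference in rhythm or between depots. Other names are marked in the text, and some genes that the rule names are not reported here. Genes most like a member were sought among those with a mean log2 CPM of at least 1. Promoters came from RefSeq (GRCm38.p6).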

Additional observations from a re-analysis of the deposited data

Results flagged for a closer look

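In 7 of 160 groups of 4 samples, the highest or lowest sample lay far from the other 3 by Dixon's criterion, which chance alone passes in about 1 in 20 groups. Of these, 5 were replicate 4 of WT at ZT18. Libraries of that number held 40.5 CPM of Irs2 in BAT (nearest other sample 8.75 CPM) and 88.5 CPM in eWAT (nearest 20.3 CPM). The same replicate number held 100.2 CPM of Foxo1 in BAT (nearest 41.9 CPM), 307.5 CPM of Insr in eWAT (nearest 182.6 CPM) and 60.2 CPM of Pdk4 in eWAT (nearest 24.6 CPM). The others were replicate 3 of FANKO eWAT at ZT22, with 144.7 CPM of Insr, and replicate 1 of WT eWAT at ZT22, with 100.3 CPM of Irs1.

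The genotype effect on mean level differed between BAT and eWAT, in a test of the difference itself, for Insr (-0.53 on the log2 scale, BAT minus eWAT), Irs2 (1.32), Irs3 (-1.78), Pik3r1 (-0.54), Akt2 (-1.35), Slc2a4 (-2.04) and Pdk4 (-2.96). The rhythm of Irs3 in eWAT differed between genotypes (adjusted p = 8.28e-05 in edgeR's test).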

How the results depend on the processing

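Of the values of the 10 genes under alternative settings, 1931 kept the side of the threshold and any direction, 48 ceased to pass, 35 came to pass and 26 turned direction. Rhythm tests have no direction, so for them only the side of the threshold was compared. With library size scaling alone, differences between depots in the genotype effect turned to 0.30 for Insr, 0.83 for Irs1, 0.31 for Pik3r1, 0.82 for Foxo1, 0.75 for Grb14, 0.13 for Tbc1d4 and 0.68 for Akt1, Insr between WT depots to -0.46, Irs1, Irs2 and Mpc1 in BAT to 0.12, 0.24 and 0.094, and Akt2 in eWAT to -0.16. The near-zero depot difference of Irs1 turned to 0.10 (DESeq2), 0.10 (RLE factors), 0.033 (no filter), 0.0045 (stricter filter), 0.0041 (no mitochondrial genes), 0.049 (without BAT libraries high in muscle markers), and ranged from -0.021 to 0.079 without a replicate, with -0.043 without replicate 4 of WT at ZT18. That of Foxo1 turned to 0.090 (DESeq2), 0.019 (limma-voom), 0.091 (RLE factors), 0.025 (no filter), 0.035 (without replicate 4 of WT at ZT18) and 0.014 (replicate block across depots), and ranged from -0.027 to 0.044 without a replicate, and that of Grb14 to 0.0046 (DESeq2), 0.00058 (RLE factors), ranging from -0.31 to 0.11 without a replicate. Without a replicate, Irs2 ranged from -0.44 to 0.047 in BAT and from -0.037 to 0.13 between FANKO depots. Sh2b2 in BAT turned to -0.00040 with a muscle covariate and to -0.0051 without replicate 4 of WT at ZT18, and ranged from 0.0096 to 0.054 without a replicate. Rhythmic genes of the 10 in FANKO eWAT numbered 3 with DESeq2, 2 with limma-voom, 0 with library size scaling, robust dispersion, an epididymis covariate or time as a factor, 3 with separate fits per depot, 3 at a false discovery rate of 0.05, 2 without replicate 4 of WT at ZT18 and 0 to 2 without a replicate. Without a replicate they numbered 2 to 5 in WT BAT, 1 to 2 in FANKO BAT and 2 to 5 in WT eWAT, where they numbered 6 without replicate 4 of WT at ZT18 and 6 at 0.05. Changed rhythms in BAT numbered 1 with DESeq2, 1 without BAT libraries high in muscle markers, 2 without replicate 4 of WT at ZT18, 2 at 0.05 and 0 to 2 without a replicate, and in eWAT 2 with separate fits. Calls at ZT6 in BAT numbered 3 with library size scaling 4 to 7 without a replicate and 9 without replicate 4 of WT at ZT18, at ZT6 in eWAT 2 to 4 without a replicate, at ZT10 in eWAT 7 with library size scaling, and at ZT22 in eWAT 8 without BAT libraries high in muscle markers, 8 without replicate 4 of WT at ZT18, 8 at 0.05 and 3 to 8 without a replicate. The cause was not tested. Correlations of deviations between samples of 1 replicate number ran from -0.133 to 0.306 across depots and -0.131 to 0.225 across genotypes, above 0.1 in 10 and 6 of 32 pairs, so the numbers were not taken to pair samples, and a replicate block gave 2 rhythmic genes in FANKO eWAT where 1 was called without it. Depth limits Slc2a1 most.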
